A study of Drosophila melanogaster with 8 samples.

Results

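The Jonah serine proteases, the maltases of the Mal-A and Mal-B clusters, the amylases and the lysozymes are enzymes that the fly midgut makes to digest food. Their genes were chosen by symbol in the RefSeq gene table of Drosophila melanogaster Release 6, and 36 genes matched: 16 Jonah proteases, 8 Mal-A and 2 Mal-B maltases, 3 amylases and 7 lysozymes. Of these, 34 were among the 14006 protein coding and lncRNA genes tested. The other two were LysC, a pseudogene in that table, and LysD, which has 2 fragments where 3 were required. Their values are given without a test.

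Occupancy by RNA polymerase II (Pol II) was measured by targeted DamID, which expresses the bacterial enzyme Dam alone or as a fusion with Pol II and reads where it has methylated GATC sites, in adult terminal tracheal cells, the air-supplying cells on the gut. Flies carried w-; dSRF-GAL4, UAS-CD8GFP/+ and tub-GAL80ts over either UAS-LT3-Dam or UAS-LT3-Dam-Pol II, so that every group shared the GAL4 driver, the GFP and the temperature-sensitive repressor. They were kept at 18 °C, aged for 7 days, moved to 29 °C for 24 hours, and fed sucrose (Suc) or sucrose with a bacterial solution labelled Pe for the last 16 hours. The 8 libraries yield 4 profiles, 2 Suc and 2 Pe, each giving, for every GATC fragment, the log2 ratio of the Dam-Pol II to the Dam library, from 60 midguts per condition and replicate. DNA came from whole midguts with their tracheal cells, and the driver confines the signal to tracheal cells only as far as it is silent in gut cells. Fewer cells carrying a signal and less signal per cell cannot be told apart in such bulk samples. A gene's value is the average of its overlapping fragments, weighted by overlap length, and values in pairs below are replicate 1, then replicate 2.

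Jonah proteases are secreted enzymes of the trypsin-like serine protease fold, named after the chromosome band of each gene. Maltases split maltose and sucrose into absorbable sugars, and amylases cut starch into maltose. The fly's digestive lysozymes break bacterial cell walls in the gut, whereas LysP is known from the adult salivary gland. All of these families grew by tandem duplication, and several copies are nearly identical, among them Amy-p with Amy-d, Jon99Cii with Jon99Ciii, and LysB with LysD and LysE, so that reads may be shared between copies and the values of such pairs are uncertain.

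The 36 genes fell into 12 loci when neighbours within 20 kb were joined, 9 of them clusters of 2 to 8 genes. The Jonah genes lay at Jon25B on 2L, Jon44E on 2R, Jon65A, Jon66C and Jon74E on 3L, and Jon99C and Jon99F on 3R. The Mal-A cluster on 2R ran from 8449664 to 8473961, the Mal-B cluster on 2L from 11847226 to 11852881, and the pair Amy-p and Amy-d on 2R from 17118636 to 17126369. The Lys cluster on 3L ran from 1194739 to 1228238. Members were 242 to 3018 bp long and had 2 to 23 fragments, with a median of 8 against 11 over all tested genes. The gene table gives no exons or strand, so positions within a gene are by coordinate only.

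Pol II occupancy varied widely among the Jonah and among the lysozyme genes, from Suc means near 0 to means above 2. Suc means spread from -0.07 to 1.57 in Mal-A, from -0.02 to 1.12 in the amylases and from 0.77 to 3.24 in Mal-B. The group mean was tested one-sided against 0 with limma, and 15 of the 34 tested members (44.1%) were called occupied in Suc at a Benjamini-Hochberg adjusted p under 0.05, where 21.2% of all tested genes were. In Pe, 5 members (14.7%) were called, against 7.53% of all tested genes, and all 5 had also been called in Suc. The median over the tested members of the mean log2 ratio was 0.29 in Suc and 0.23 in Pe, against 0.04 and 0.07 over all tested genes, while 17 members had a Suc mean under 0.25. Leaving out Pe replicate 1 or Pe replicate 2 took both counts to 0, and took those over all tested genes to 0 as well. Leaving out Suc replicate 2 gave 3 members in Suc, where 6.05% of all tested genes were called. Leaving out Suc replicate 1 gave 11 members in Suc, with 28.1% of all tested genes. Either gave 10 members in Pe, with 23.6% of all tested genes. In each of these fits the lone profile is assumed to vary like the other condition.

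**Figure D1:**
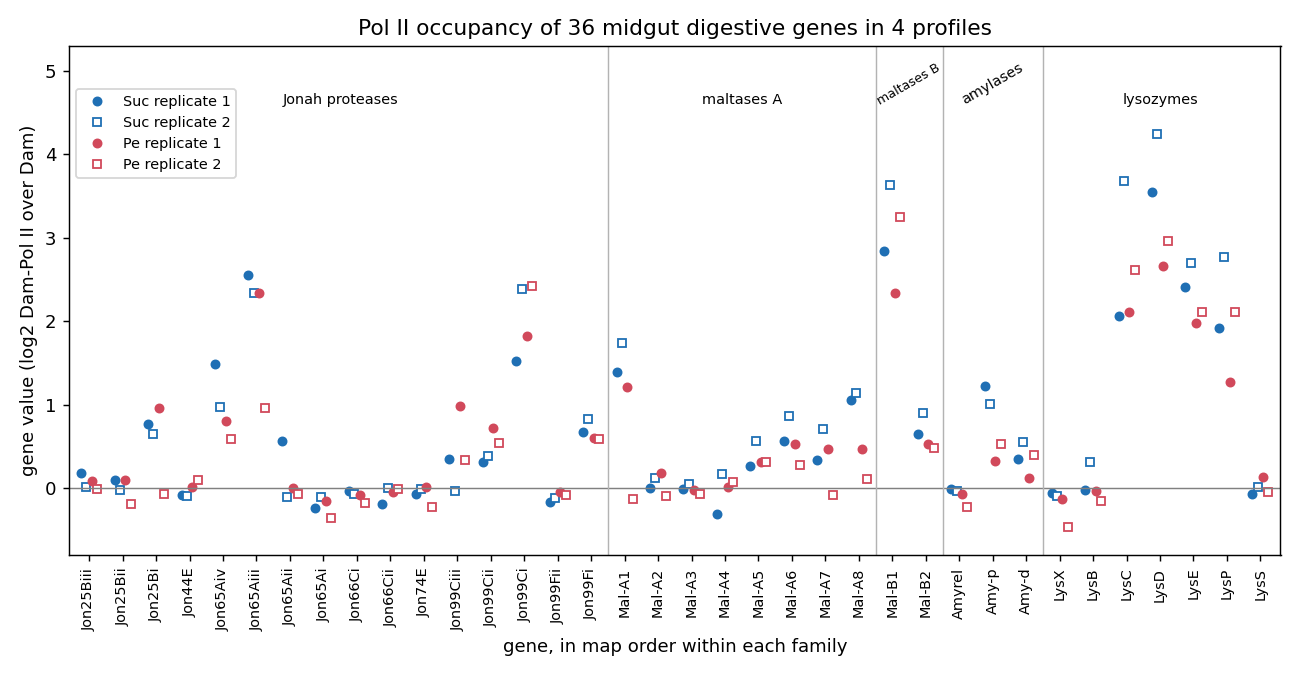
Each point is the gene value (log2 ratio, Dam-Pol II to Dam) of 1 of the 36 genes in 1 of 4 profiles, with genes in map order within each family and replicate 2 as open squares. Values differ widely within families, and the highest is 4.24 at LysD in Suc replicate 2.

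High and low lysozyme genes stood side by side in the Lys cluster. LysD, a digestive lysozyme, had the highest Suc mean of all 36 genes, with 3.55 and 4.24 in Suc and 2.66 and 2.96 in Pe, but rests on 2 fragments, 1 of them shared with LysC. LysE, another digestive copy, stood at 2.41 and 2.70 in Suc and 1.98 and 2.11 in Pe. LysP, the salivary gland form, stood at 1.92 and 2.77 in Suc and 1.27 and 2.11 in Pe. All 4 profiles were therefore far above 0 at these genes, and LysE was called in both conditions (limma adjusted p = 0.0213 in Suc and 0.0458 in Pe) and LysP in Suc (limma adjusted p = 0.0262; 0.0556 in Pe). LysC, whose span overlaps LysD, had 2.06 and 3.69 in Suc and 2.12 and 2.62 in Pe. The other lysozymes were near 0, with Suc means of 0.14 at LysB, -0.03 at LysS and -0.08 at LysX, and none of them was called. LysX, at -0.06 and -0.10 in Suc and -0.13 and -0.47 in Pe, was the lowest tested lysozyme in Suc. LysB lies 2503 bp from LysC, and 7 fragments between them had a Suc mean of 0.88.

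All lysozyme genes but LysX, 6 in number, lie within the span of mwh, a gene of wing hair polarity, whose 122 fragments include theirs. The 18 fragments of mwh that overlap a lysozyme had a length-weighted Suc mean of 1.66, and the 78 fragments over 1 kb from any lysozyme 0.54. In Pe these were 1.26 and 0.44. Within that span the signal came in separate blocks. A contiguous run of fragments with a Suc mean above 1 covered 4.37 kb over LysC, LysD and LysE, and a second covered 4.13 kb and ended 0.42 kb past LysP, most of it before LysP, by coordinate. Whose transcription these blocks carry was not tested.

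Both Mal-B maltases were called occupied in Suc. Mal-B1 stood at 2.84 and 3.64 in Suc and at 2.34 and 3.25 in Pe, above 99.9% of all tested genes by its mean in either condition (limma adjusted p = 0.0225 and 0.0458). Mal-B2, its neighbour 788 bp away, stood at 0.65 and 0.90 in Suc and 0.53 and 0.48 in Pe, with an adjusted limma p of 0.0234 in Suc and 0.0508 in Pe. The maltase pair thus differed by 2.47 in Suc and 2.28 in Pe, and Mal-B1 was the higher in every profile. Both genes lie within the 114.42 kb span of Pde1c, a cyclic nucleotide phosphodiesterase gene, whose 174 fragments over 1 kb from them had a Suc mean of 0.19. Signal above 1 began 6.29 kb before Mal-B1, by coordinate, and the next gene on that side, CG42486, had a Suc mean of 2.56 at a distance of 3.16 kb. The run above 1 that held the highest fragment of Mal-B2 began 1.31 kb before Mal-B2. The 1 kb before Mal-B2 had a mean of 2.67 in Suc and 1.93 in Pe. Whether the value of Mal-B2 is its own signal or that of this stretch was not tested.

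In the Mal-A cluster 4 of 8 genes were called in Suc and 0 in Pe. Mal-A1, at one end of the cluster, stood at 1.39 and 1.75 in Suc and 1.22 and -0.12 in Pe (limma adjusted p = 0.0495 in Suc). Mal-A8, at the other end, stood at 1.06 and 1.14 in Suc and 0.47 and 0.12 in Pe (limma adjusted p = 0.0227 in Suc). The ends thus carried the highest Suc values, and both Pe profiles lay below both Suc profiles at each. Mal-A1 overlaps Cyp4e1 (1 of 19 fragments shared with another gene), and Mal-A8 overlaps mtt (2 of 18 shared). A run of 4 fragments with a Suc mean above 1 began 0.325 kb before Mal-A8, by coordinate, and also held the highest fragment of Mal-A7. Mal-A6 stood at 0.57 and 0.86 in Suc and 0.53 and 0.28 in Pe, and Mal-A5 at 0.26 and 0.57 in Suc and 0.32 and 0.32 in Pe. Both were called in Suc, with adjusted limma p of 0.0297 and 0.0477. Mal-A7 had a Suc mean of 0.53 and was not called, and Mal-A2 and Mal-A3 had 0.06 and 0.02. Mal-A4, the lowest of the family, stood at -0.31 and 0.17 in Suc and 0.01 and 0.08 in Pe. Of the 23 fragments of Mal-A3, 8 were listed at 0 in every profile, against 4.70% of the 319 member fragments together and 11.7% of all nuclear fragments.

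The signal within Mal-A1 was uneven. Its highest fragment by Suc mean, at the end of the gene next to Mal-A2, had 3.15 and 3.77 in Suc and 1.19 and 0.94 in Pe. Mal-A6 had a run of 4 fragments with a Suc mean above 1, over 0.555 kb. The highest of them by Suc mean had 2.15 and 3.25 in Suc and 0.81 and 1.34 in Pe. As such fragments were chosen by their Suc mean, the choice favours Suc over Pe. The gene means of Mal-A1 and Mal-A6 therefore cover short stretches with high values, as the plot of fragments across clusters shows. The low genes held none, as the highest fragment had a Suc mean of 0.21 at Mal-A2, 0.51 at Mal-A3 and 0.03 at Mal-A4. Another stretch with high values lay before Mal-A5, where the 1 kb before the gene had a mean of 1.06 in Suc and 1.32 in Pe.

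**Figure D2:**
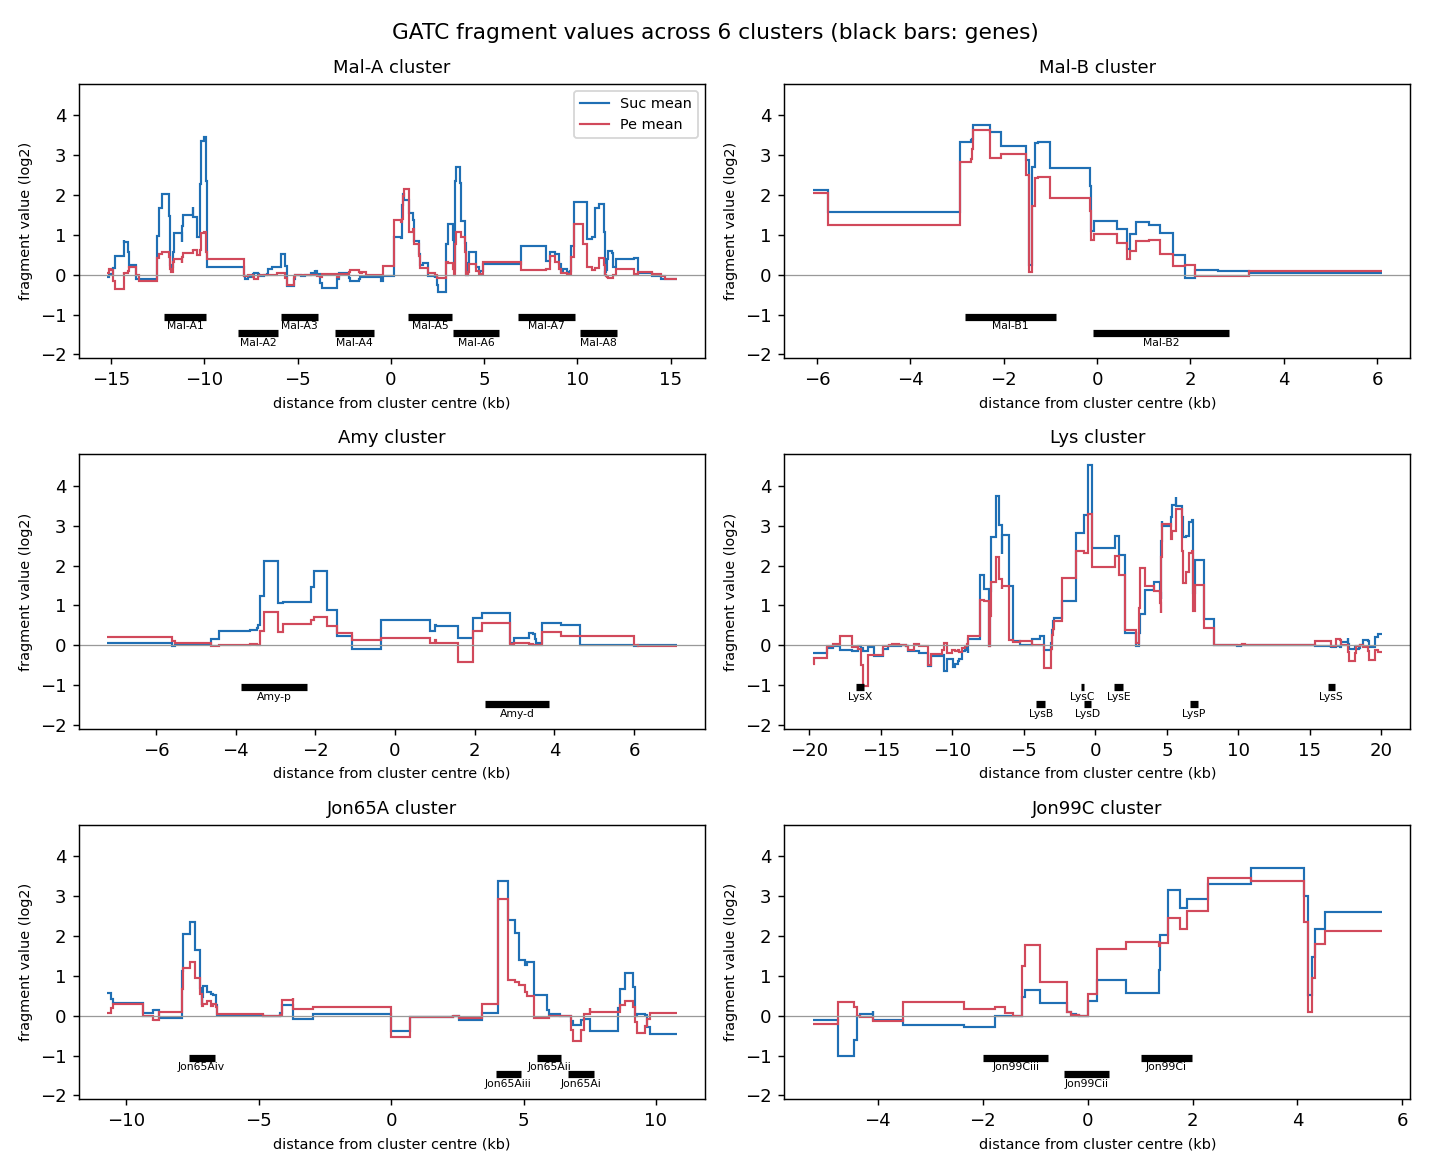
Mean fragment value (log2) of the 2 Suc (blue) and the 2 Pe profiles (red) along 6 clusters, against distance from the cluster centre in kb, with genes as black bars. Signal comes in blocks, such as the one over LysC, LysD and LysE and that over Mal-B1 and the stretch before it.

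The amylases ranked Amy-p, Amy-d and Amyrel in every Suc profile. Amy-p, the proximal copy, stood at 1.23 and 1.01 in Suc and 0.33 and 0.53 in Pe (limma adjusted p = 0.0213 in Suc and 0.0613 in Pe). Amy-d, the distal copy 4460 bp away, stood at 0.35 and 0.56 in Suc and 0.13 and 0.40 in Pe (limma adjusted p = 0.0495 in Suc). Its Suc mean of 0.45 was no higher than those of the genes on either side, 0.49 at Spn53F (0.527 kb away) and 0.52 at CG15605 (0.041 kb away). Amyrel, an amylase-related gene at another locus on 2R, stood at -0.01 and -0.03 in Suc and -0.07 and -0.22 in Pe. The copies of the pair were thus apart in both Suc profiles, while Amyrel was at 0 or below. The highest fragment of Amy-p, chosen by its Suc mean, had 2.36 and 1.85 in Suc and 0.79 and 0.87 in Pe.

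Among the 16 Jonah proteases 5 were called in Suc and 3 in Pe. Jon65Aiii stood at 2.55 and 2.34 in Suc and 2.34 and 0.96 in Pe (limma adjusted p = 0.0279 in Suc and 0.0634 in Pe). Jon99Ci stood at 1.52 and 2.39 in Suc and 1.82 and 2.42 in Pe, and was called in both conditions (limma adjusted p = 0.0265 and 0.0458). Jon65Aiv stood at 1.49 and 0.97 in Suc and 0.81 and 0.59 in Pe (limma adjusted p = 0.0251 in Suc). These 3 genes had the highest Suc means of the family. Jon99Fi stood at 0.68 and 0.83 in Suc and 0.60 and 0.59 in Pe, and Jon99Cii at 0.31 and 0.39 in Suc and 0.72 and 0.54 in Pe. Both were called in both conditions (limma adjusted p = 0.0215 and 0.0422 in Suc, 0.0458 for both in Pe). At Jon99Fi the run of fragments with a Suc mean above 1 ended 0.345 kb past the gene, by coordinate. PH4alphaSG2, the next gene on that side, lay 0.179 kb away and had a Suc mean of 0.30. The Suc call held in 4 of 13 alternative settings at Jon99Cii, as it did in 6 of 13 at Amy-d and 6 of 14 at Mal-A1.

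The remaining 11 Jonah genes were not called. Jon65Ai had the lowest Suc mean of all tested members, at -0.24 and -0.11 in Suc and -0.15 and -0.36 in Pe. Jon66Ci, Jon66Cii, Jon74E, Jon44E and Jon99Fii had Suc means between -0.14 and -0.04, Jon25Bii and Jon25Biii had 0.04 and 0.10, Jon99Ciii had 0.16 and Jon65Aii had 0.23. Jon25Bi had 0.77 and 0.65 in Suc and 0.97 and -0.07 in Pe, and its signal lay in 1 stretch at the end next to Marcal1. The family therefore had no common level: its median over 16 genes was 0.13 in Suc and 0.05 in Pe, and its means spread from -0.17 to 2.45 in Suc.

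Some neighbouring copies differed. Of the 24 pairs of neighbouring members within a cluster, 9 differed by over 1 in Suc. Among these were LysB with LysC, LysC with LysD and LysD with LysE, which rest on the untested LysC and LysD with 2 fragments each. Neighbouring genes outside these families were not compared. Jon65Aiii and Jon65Aii, 630 bp apart, differed by 2.21 in Suc and 1.68 in Pe, and Jon99Ci and Jon99Cii, 610 bp apart, by 1.61 and 1.49. LysP and LysS, 9050 bp apart, differed by 2.37 in Suc. At Jon99Ci the signal did not end with the gene. The 1 kb after it, by coordinate, had a mean of 3.19 in Suc and 3.21 in Pe, and CG15522, the next gene at 1.07 kb, had a Suc mean of 3.19. Jon99Ci, whose value was thus below that of the stretch beside it, cannot be separated from it in these profiles.

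The family median over tested members was 2.01 in Suc and 1.65 in Pe for the Mal-B pair. It was 0.47 in Suc and 0.24 in Pe for Mal-A, and 0.45 and 0.26 for the amylases. These medians moved with single profiles. In Pe, leaving out replicate 1 gave 0.0044 for Mal-A and 0.40 for the amylases, and leaving out replicate 2 gave 0.39 and 0.13. In Suc, the Jonah median was -0.0052 without Suc replicate 1 and 0.25 without Suc replicate 2, and the lysozyme median 0.31 and -0.023. Without Pe replicate 1 the Pe medians of these 2 families were -0.0084 and -0.043, and without Pe replicate 2 they were 0.099 and 0.14. The lysozymes stood at 0.14 and 0.05 over 5 tested genes, and at 1.25 and 0.87 once LysD was added by dropping the requirement of 3 fragments. Families were not tested against each other, because their genes share sequence and position. By locus, the Lys cluster had a median of 2.34 in Suc over all 7 genes and Jon66C one of -0.07.

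The second comparison set flies fed the bacterial solution against those given sucrose alone. No member passed the limma test of Pe minus Suc, which was two-sided (smallest adjusted p = 0.897), and of all tested genes 0% did. At an unadjusted p under 0.05, 3 members were lower in Pe (8.82%, against 2.28% of all tested genes) and 0 were higher (against 1.66%). The values pointed mostly one way. The mean was lower in Pe at 26 of 34 members (76.5%), against 45.3% of all tested genes (6343 of 14006), and the median difference was -0.14, against 0.02. That count was 25 of 34 under median and MAD scaling (7266 of 14006 over all tested genes) and 26 of 34 after quantile normalization (6972 of 14006). It was 23 of 33 with the median of the fragments (5708 of 13804) and 21 of 35 with 1 kb of flank added to each gene (6836 of 15625). With 1 profile left out it ranged from 22 to 27 of 34, and over all tested genes from 4169 to 8132 of 14006. Both Pe profiles lay below both Suc profiles at 13 members (38.2%, against 14.0% of all tested genes) and above them at 3 (8.82%, against 23.0%). The median difference of the members was -0.06 without Pe replicate 2 and -0.20 without Suc replicate 1. Over all tested genes it was -0.0051 and -0.045 in these fits.

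The 3 members with an unadjusted p under 0.05 were Amy-p, Mal-A8 and LysE. Amy-p had a difference of -0.69 (SE 0.14), Mal-A8 one of -0.81 (SE 0.16) and LysE one of -0.51 (SE 0.14). Both Pe profiles lay below both Suc profiles at each of them, and none passed the adjustment. With any single profile removed, Amy-p ranged from -0.80 to -0.58, Mal-A8 from -0.98 to -0.63 and LysE from -0.66 to -0.36. The difference at LysE shrank to -0.06 after quantile normalization and to -0.14 under median and MAD scaling, whereas Amy-p kept -0.60 and -0.64 and Mal-A8 -0.70 and -0.72.

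The largest difference without overlap among tested members, -1.02 at Mal-A1 (SE 0.54), depended on the Pe profile used. It was -1.69 without Pe replicate 1 and -0.35 without Pe replicate 2. Jon65Aiii behaved alike, with -0.79 (SE 0.54) in all 4 profiles, -1.48 without Pe replicate 1 and -0.10 without Pe replicate 2. LysP had -0.65 (SE 0.47), Jon65Aiv -0.53 (SE 0.23), Mal-B1 -0.45 (SE 0.47) and Mal-B2 -0.27 (SE 0.13). The value at Mal-B1 turned to 0.053 under median and MAD scaling.

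**Figure D3:**
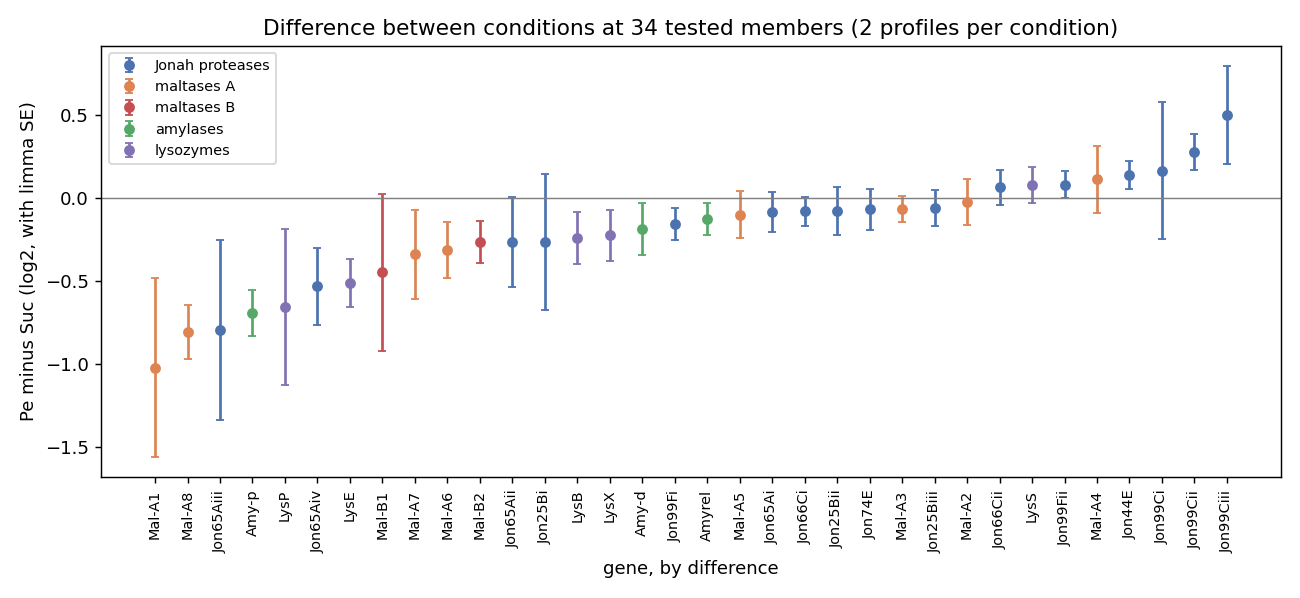
Difference of the Pe mean from the Suc mean (log2) at the 34 tested members in rising order, coloured by family, with limma standard errors from 2 profiles per condition. Points run from -1.02 at Mal-A1 to 0.50 at Jon99Ciii, 26 of them below 0.

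By family, 7 of 8 Mal-A genes, both Mal-B genes, all 3 amylases, 4 of 5 tested lysozymes and 10 of 16 Jonah genes had a lower mean in Pe. The median differences were -0.21, -0.36, -0.19, -0.24 and -0.07. With 1 profile left out, that of Mal-A ranged from -0.36 to -0.080, that of Mal-B from -0.62 to -0.095, that of the amylases from -0.32 to -0.14 and that of the lysozymes from -0.41 to -0.18. Their sign held with quantile-normalized profiles and with profiles scaled by median and MAD, where that of the Mal-B pair was -0.14 and -0.064. The Jonah median turned to 0.032 without Pe replicate 2 and to 0.059 with 1 kb of flank added to each gene. In the Jon99C cluster the means were higher in Pe, with differences of 0.50 (SE 0.30) at Jon99Ciii, 0.28 (SE 0.11) at Jon99Cii and 0.17 (SE 0.41) at Jon99Ci. Both Pe profiles were above both Suc profiles at Jon99Cii, and none of the 3 was called. The difference at Jon99Cii was 0.0082 with the median of the fragments. That at Jon99Ci turned to -0.31 with the median of the fragments, to -0.14 without Pe replicate 2 and to -0.27 without Suc replicate 1. The highest fragment of Jon99Ciii by Suc mean had 2.78 and 0.79 in Pe and 1.28 and 0.00 in Suc. Each condition thus held 1 high and 1 low profile there.

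The Pe profiles differed from each other at these genes. Pe replicate 1 was above Pe replicate 2 at 25 of 34 members (73.5%), against 37.3% of all tested genes. The gap exceeded 1 at Jon65Aiii, Mal-A1 and Jon25Bi, while no tested member differed by over 1 between the Suc profiles. Over all 14006 tested genes it exceeded 1 at 200 in Pe and at 604 in Suc. At Mal-A1 and Jon25Bi the second Pe profile was below 0 (-0.12 and -0.07), while the first stood at 1.22 and 0.97. The median gap between replicates was 0.20 in either condition at the members, and 0.15 in Pe and 0.18 in Suc over all tested genes.

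**Figure D4:**
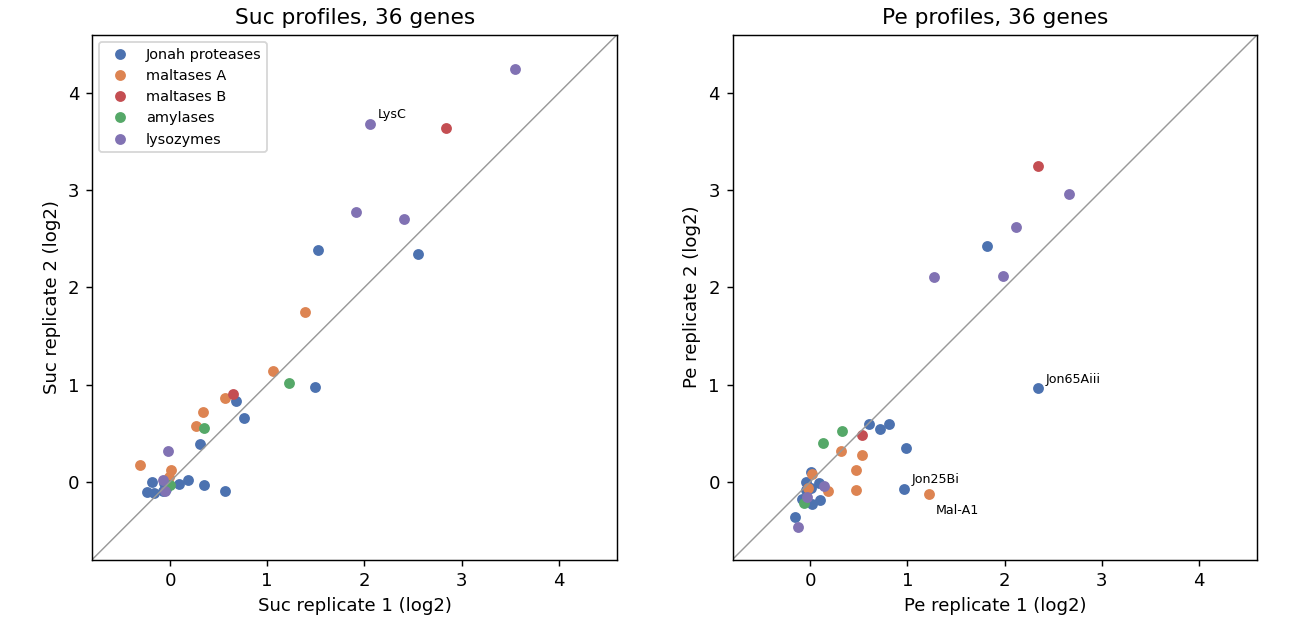
Gene values (log2) of replicate 2 against replicate 1 for the 36 genes, in Suc (left) and Pe (right), with the line of equal values. In Pe, Jon65Aiii, Mal-A1 and Jon25Bi lie far to the right of the line, at 0.96, -0.12 and -0.07 in replicate 2. In Suc only LysC, which was not tested, is apart by over 1.

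Other digestive genes of the midgut were examined as a list of 32, of which 32 were tested. In Suc 8 were called occupied and in Pe 3, against 21.2% and 7.53% of all tested genes, the list's median being 0.05 in Suc and -0.01 in Pe. The called genes were Ser6, lambdaTry, alphaTry, betaTry, epsilonTry, iotaTry, the trehalase gene Treh, and tobi, an alpha-glucosidase gene that is a target of insulin and glucagon-like signals. The value of tobi was 1.25 and 1.41 in Suc and 0.63 and -0.24 in Pe. Treh, which splits trehalose, was the only one of the 8 with a higher mean in Pe, 1.38 against 1.14. Between conditions 0 of 32 were called, and 21 had a lower mean in Pe, where 45.3% of all tested genes did. The trypsin genes alphaTry, epsilonTry and betaTry had the smallest p of the list, with differences of -1.58 (SE 0.23), -1.15 (SE 0.11) and -1.47 (SE 0.43). None of the lipase genes mag, Lip1, Lip2, Lip3 and Lip4 was called, with Suc means from -0.35 to 0.12, and the 6 lysosomal mannosidase genes LManI to LManVI lay between -0.15 and -0.04.

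Regulators of these enzymes were read from a list of 22, all tested, of which 6 were called in Suc and 0 in Pe, against 21.2% and 7.53% of all tested genes. These were cbt and sug, transcription factor genes induced by dietary sugar, bigmax, the partner of the sugar sensor Mondo, the nuclear receptor gene Hnf4, foxo of insulin signalling and put, a receptor of the activin and BMP pathways. The value of cbt was 1.69 and 2.84 in Suc and 1.27 and 1.23 in Pe, and that of sug 0.91 and 1.11 in Suc and 0.72 and 0.11 in Pe. Both Pe profiles were therefore below both Suc profiles at each. GATAe, a GATA factor that acts on midgut digestive genes, stood at 0.42 and 0.45 in Suc and 0.38 and -0.09 in Pe and was not called, and daw, an activin ligand that represses such enzymes, had a mean of 0.20 in Suc. Between conditions 0 of 22 were called. The smallest p were those of lab (0.22, SE 0.08), vvl (-0.73, SE 0.30) and sug (-0.60, SE 0.26).

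Levels of cell type markers are given beside these results, and their part in them was not tested. The enterocyte list shares alphaTry, betaTry, iotaTry, thetaTry and mex1 with the digestive genes above, and Hnf4, nub and GATAe with the regulators. Its genes called in Suc were Hnf4, alphaTry, betaTry and iotaTry, all counted above already. The regulators also include vvl of the tracheal list and srp of the haemocyte list. The shares over all tested genes were 21.2% in Suc and 7.53% in Pe. Of 9 tracheal markers 4 were called in Suc and 1 in Pe, among the former bs, which encodes the dSRF that the GAL4 line is named after. Their median was 0.50 and 0.79 in the Suc profiles and 0.26 and -0.19 in the Pe profiles. Of 9 enterocyte markers that are not members 4 were called in Suc and 1 in Pe, with medians of 0.42 and 0.55 in Suc and 0.42 and 0.33 in Pe. The count was 3 of 5 in Suc for the tested stem cell and enteroblast markers and 4 of 8 for visceral muscle, and 0 of 8 for enteroendocrine cells, 0 of 5 for haemocytes, 0 of 5 for fat body and 0 of 4 for neurons.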

How the data were processed

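The authors deposited 4 profiles of GATC fragments, read here as log2 ratios (Dam-Pol II to Dam) from their range and their values below 0. Aligner, normalization and base of the logarithm: not given in the sources used here. The genome build is BDGP 6, per the submitters' processing notes. Each profile was assigned to the Dam-Pol II library of its condition and replicate by the description label, although the track line for Suc replicate 2 reads 3. As the depth behind the ratios is unknown, neither intervals nor floors are given. The replicates are biological, per the labels.

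From the 383654 nuclear fragments (median 197 bp), Python 3.11.15 (pandas 2.3.3, numpy 2.4.6) made the gene values. Genes having at least 3 fragments and not at 0 in every profile entered limma 3.58.1 (R 4.3.3). The conditions shared 1 spread, with the prior variance trended on fragment number, and p-values were adjusted over all 14006 genes. The fit was also run on simulated data, to check that known differences were recovered on average. How many of those would be called is not reported here. Members, lists and tests were chosen with earlier results of these data known. Named members were the highest and lowest of each family in Suc, those called, those with the 6 smallest unadjusted p and the 3 largest differences without overlap. Genes of other lists were named when called or among the 3 smallest p. Lipases, mannosidases, GATAe, daw and genes beside, between or overlapping members were added after their values were seen.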

Additional observations from a re-analysis of the deposited data

How the results depend on the processing

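No member passed the adjusted test of Pe minus Suc under any of the 14 alternatives, and 1 to 7 members had an unadjusted p under 0.05, the 7 with the replicate block. The count of members called occupied in Suc was 15 and moved to 7 with at least 10 fragments (13 members tested), 7 with the median of the fragments and 8 with fragments of 1 gene only (28 tested), and ranged from 0 to 11 when 1 profile was left out. The Pe count was 5 and became 10 under median and MAD scaling, quantile normalization, 1 kb flanks and the replicate block, 1 with at least 10 fragments, 0 with the median of the fragments and 0 with fragments of 1 gene only, and ranged from 0 to 10 when 1 profile was left out. Over all genes the counts in Suc and Pe were 3853 and 3689 under median and MAD scaling, 4374 and 4376 after quantile normalization, 1011 and 0 with the median of the fragments and 4017 and 3297 with the block. The Pe rise from 5 to 10 members came with a rise over all genes from 7.53%. That share was 26.3% after MAD scaling, 31.2% after quantile normalization, 15% with flanks and 23.5% with the block. With 34 members tested (35 with flanks), the members' share after quantile normalization was no higher than that of all genes. With at least 10 fragments 20.9% of all genes were called in Suc and 3.43% in Pe. With fragments of 1 gene only these were 19.1% and 0.839%. The replicate numbers mark no stated shared day or animal (the correlation of the replicate deviations between conditions across genes was 0.285), and no difference was called with the replicate block. The Jonah median in Pe moved to -0.030 under median and MAD scaling and 0.15 with flanks, and to 0.33 with at least 10 fragments, where that in Suc was 0.63 (2 genes). The amylase medians moved to -0.018 in Suc and -0.14 in Pe with at least 10 fragments (1 gene) and to 0.25 and 0.030 with the median of the fragments. The lysozyme medians moved to 1.25 and 0.87 with no filter, 0.96 and 0.75 with flanks, and -0.30 in Pe with fragments of 1 gene only (1 gene). Differences were recomputed for every tested member, but changes of sign were followed only at the 19 members named by rule. Sign changes at the other members are not listed here. Among the 19, Mal-B1 changed sign (0.053 under median and MAD scaling, -0.90 to 0.0071 with 1 profile left out). So did Jon65Ai (0.029 with unweighted means, 0.089 with the median of the fragments, 0.070 with flanks, -0.19 to 0.019 with 1 profile left out). Jon99Ci turned as well (-0.31 with the median of the fragments, -0.27 to 0.60 with 1 profile left out). The last were Mal-A4 (-0.12 to 0.35 with 1 profile left out) and Mal-A5 (-0.25 to 0.053 with 1 profile left out). The cause was not tested, except that fewer genes are tested under the stricter filters. Joining neighbours within 50 kb gave the same 12 loci.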
